A study of Mus musculus with 24 samples.

Results

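Loss of Fancg was examined here in mice that also carry the Mdm4 transgene. The comparison sets 3 libraries of genotype FancgKO_Mdm4Tg against 3 libraries of genotype Mdm4Tg, both given phosphate-buffered saline (PBS), the vehicle of a poly(I:C) treatment. Both groups carry the transgene, so they differ by label in the Fancg genotype. These 6 libraries were chosen by their genotype and treatment labels out of 24, and 12628 of the 26267 genes in the table were kept, those whose normalised count reached 10 in 2 or more libraries. The RNA came from bone marrow LSK cells, the sorted lineage-negative, Sca-1-positive, Kit-positive fraction that holds blood stem and early progenitor cells. Other groups used for comparison are FancgKO and WT with PBS (4 libraries each, no transgene) and FancgKO_Mdm4Tg and Mdm4Tg with poly(I:C) (2 libraries each). The labels give no age, sex, dose or time, and they do not say what drives the transgene, how the Fancg allele was disrupted or whether each library is a separate animal. The p-values below therefore reflect the spread among the libraries fitted and nothing wider. Unless stated otherwise these are all 24, which also include FancgKO and WT with poly(I:C) (3 libraries each).

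The product of Fancg is part of the core complex of the Fanconi anaemia pathway, which loads ubiquitin onto FANCD2 and FANCI so that crosslinked DNA can be unhooked and repaired. Blood stem cells are sensitive to its loss, and bone marrow failure is the best known feature of Fanconi anaemia. MDM4 binds p53 and holds back its activity as a transcription factor, and unrepaired DNA damage is a classic trigger of p53. The comparison asks which transcripts differ with Fancg when Mdm4 is raised in both groups.

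The transgene was visible in all 6 libraries. Normalised counts of Mdm4 were 6908, 5799 and 5969 in FancgKO_Mdm4Tg and 7105, 6571 and 6367 in Mdm4Tg, in the order of the replicate numbers 2, 7 and 8 that the titles carry. The groups overlapped, and the log2 difference was -0.11 ± 0.15 (SE). In the 8 PBS libraries without the transgene Mdm4 lay between 758.3 and 1293. Fancg itself was counted at 39.8, 53.5 and 71.4 in FancgKO_Mdm4Tg and at 68.0, 41.3 and 61.6 in Mdm4Tg, with overlapping groups. In FancgKO against WT its log2 difference was -0.70 ± 0.23 (SE, limma adjusted p = 0.999). The table holds a single total over the whole gene, so it does not check whether the disrupted part was transcribed.

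The 6 libraries held between 949156 and 3716280 reads assigned to genes, within a range of 807686 to 8229715 for the series. Library 2 of FancgKO_Mdm4Tg was the shallowest, and the ribosomal RNA gene CT010467.1 stood at 95890 there and between 7978 and 26590 in the other 5. Stem and progenitor markers were present in each library, with Kit from 1710 to 2414, Cd34 from 1752 to 2099 and Hlf from 595.2 to 1239, while Ly6a, the gene of the sort marker Sca-1, was low, from 19.6 to 45.9. Most markers of mature cells were at or near 0: Cd3e, Cd3g, Ly6g and Camp had no read in any of the 6, and Hba-a1, Cd79a and Ms4a1 stayed at or below 2.59. Genes of maturing lineages that were not near 0 included Cd79b, from 18.2 to 37.3, Cxcr2, from 8.50 to 41.2, Csf1r, from 25.5 to 113.9, Cpa3, from 69.5 to 188.3, and Car1, from 18.2 to 228. Xist was at most 3.93 and the Y-linked Ddx3y at least 353.6 in all 6, so the groups did not differ in the sex pattern of their RNA.

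Few transcripts separated the groups. With limma on log2(normalised count + 1) and Benjamini-Hochberg adjustment over all genes at 0.05, 0 of 12628 genes passed (0%), and 348 had an unadjusted p under 0.05, of which 161 were higher (1.27% of all genes) and 187 lower (1.48%) in FancgKO_Mdm4Tg. edgeR also called 0 genes and had 277 at an unadjusted p under 0.05. Libraries with the same replicate number deviated together. In the limma fit with the number as a block Plag1 fell and Tjp1 rose with Fancg loss, 2 genes or 0.0158% of those tested. That fit had 945 genes at an unadjusted p under 0.05, 442 higher and 503 lower in FancgKO_Mdm4Tg. That blocked fit called 0 genes without library 2 or library 7 of either group, Plag1 alone without library 8 of FancgKO_Mdm4Tg, and both without library 8 of Mdm4Tg. DESeq2 called 2 genes (0.0158%), Plag1 and Tjp1. The groups did not overlap, whatever the test, for 484 genes that were higher (3.83%) and 569 that were lower (4.51%) in FancgKO_Mdm4Tg, and these percentages are the background for the counts of gene lists below. The median log2 difference over all genes was -0.01.

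Plag1 was the gene that passed in the lower direction. It encodes a zinc-finger transcription factor that promotes growth and lies at chr4:3900996-3938423 (mm10, minus strand). Its normalised counts were 15.9, 38.0 and 30.6 in FancgKO_Mdm4Tg and 103, 167 and 106 in Mdm4Tg. Every FancgKO_Mdm4Tg library lay below every Mdm4Tg library, and the means of 28.2 ± 11.2 and 125 ± 36.2 (SD, n = 3 each) differed 4.45-fold. The log2 difference was -2.16 ± 0.43 (SE, limma adjusted p = 0.347), and with the replicate block it was -2.16 ± 0.32 (limma adjusted p = 0.00942). Within the pairs it was -2.62, -2.11 and -1.76. Of the 5 other genes kept within 400 kb of Plag1, all overlapped between the groups, with log2 differences from -0.30 to 0.21, among them the adjacent Chchd7 at -0.07. Plag1 and Fancg share chromosome 4, and 39.1 Mb separate them.

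Tjp1 moved the other way. It encodes ZO-1, a scaffold of tight junctions under the cell membrane, and lies at chr7:65296165-65527781 (mm10, minus strand). Normalised counts were 87.5, 103 and 111 in FancgKO_Mdm4Tg against 17.9, 23.6 and 47.2 in Mdm4Tg. The groups were separate, and the means of 100.2 ± 11.7 and 29.6 ± 15.5 (SD, n = 3 each) differed 3.39-fold. The log2 difference was 1.84 ± 0.34 (SE, limma adjusted p = 0.282), and with the replicate block 1.84 ± 0.30 (limma adjusted p = 0.0204). Library 8 of Mdm4Tg was the highest of its group. Of the 2 other genes kept within 400 kb of Tjp1, Tarsl2 overlapped, and Tm2d3 was higher without overlap, at 29.2, 34.5 and 20.4 against 19.4, 17.7 and 17.0, a log2 difference of 0.58. Without library 8 of Mdm4Tg the Tjp1 difference was 2.22 and Tjp1 passed in the fit without the block as well (limma adjusted p = 0.0289).

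**Figure D1:**
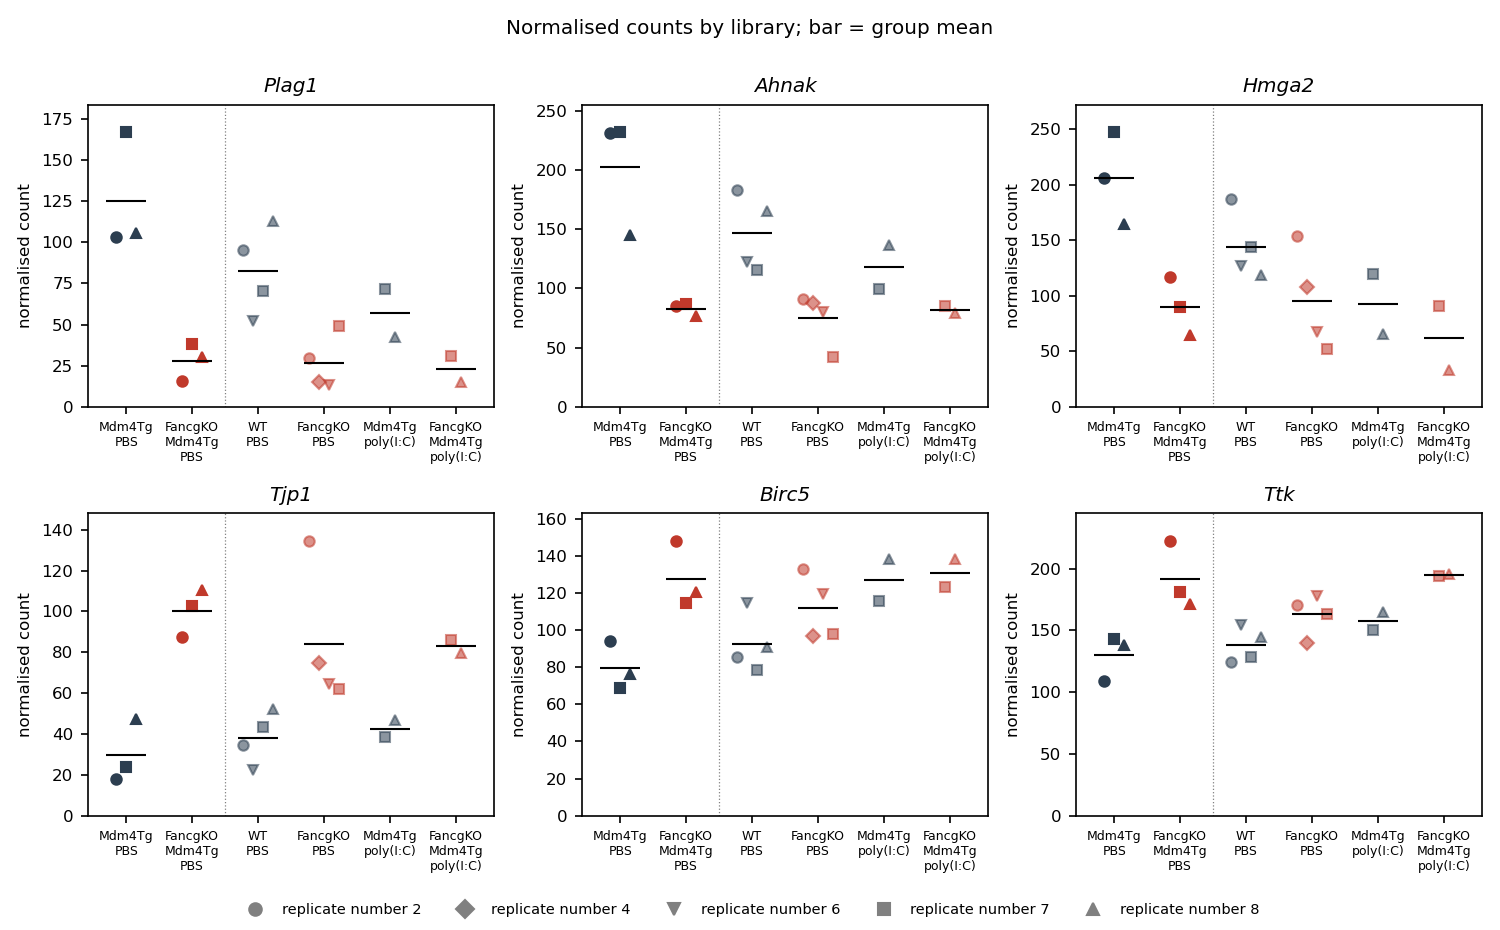
Normalised counts (vertical axes, starting at 0) of Plag1, Ahnak, Hmga2, Tjp1, Birc5 and Ttk in each library of 6 groups, with symbols for the replicate number and bars for the group means. To the left of the dotted line, all FancgKO_Mdm4Tg libraries with PBS lie below all Mdm4Tg libraries with PBS for Plag1, Ahnak and Hmga2, and above them for Tjp1, Birc5 and Ttk.

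Below these, genes were named by the size of their p in each direction among those with a mean count of at least 50. Ahnak, which encodes a very large scaffold protein under the plasma membrane, was counted at 84.9, 87.1 and 76.5 in FancgKO_Mdm4Tg and at 231, 232 and 145 in Mdm4Tg. Its log2 difference of -1.25 ± 0.31 (SE) did not pass in the fit of all libraries (limma adjusted p = 1, and 0.346 with the block). Hmga2, a chromatin protein that is abundant in fetal blood stem cells, was counted at 117, 89.7 and 64.6 against 206, 248 and 165, a log2 difference of -1.20 ± 0.40. In both genes the 3 FancgKO_Mdm4Tg libraries lay below the 3 Mdm4Tg libraries. Both passed in the fit restricted to the 6 libraries with the block (limma adjusted p = 0.0143 for each), which called 4 genes.

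The other 7 genes with the smallest p among the lower ones had limma adjusted p-values of 1. Igf2r, the receptor that removes the growth factor IGF2 and is itself imprinted, was counted at 47.7, 40.5 and 45.9 in FancgKO_Mdm4Tg and at 97.9, 70.7 and 86.2 in Mdm4Tg. Peli2, a ubiquitin ligase of Toll-like receptor signalling, differed by -0.96 ± 0.28 on the log2 scale, and by -0.50 without library 2 of FancgKO_Mdm4Tg. Slc9a7, a sodium-proton exchanger of the Golgi, differed by -0.85 ± 0.24, and the forkhead factor Foxj2 by -0.74 ± 0.20. Tbc1d16, a Rab GTPase-activating protein, Mtss1, an actin regulator, and Gpatch8 were between -0.80 and -0.36. The groups did not overlap for any of these 7.

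The genes nearest the threshold among the higher ones included regulators of cell division. Ttk, the spindle checkpoint kinase also called Mps1, was counted at 223, 181 and 172 in FancgKO_Mdm4Tg and at 109, 143 and 138 in Mdm4Tg. Birc5 encodes survivin, a subunit of the chromosomal passenger complex, and was counted at 149, 115 and 121 against 94.2, 68.8 and 76.7. Shcbp1, which acts at the midbody in cytokinesis, was counted at 223, 169 and 204 against 126, 157 and 161. The groups were separate for these 3 genes, and the log2 differences were 0.56 ± 0.15, 0.68 ± 0.19 and 0.42 ± 0.16 (SE), none of which passed (limma adjusted p = 1 for each, and 0.426 and 0.233 for Ttk and Birc5 with the block).

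Outside cell division, Psmg1, a chaperone of proteasome assembly, had 74.3, 68.1 and 71.4 against 44.1, 49.1 and 50.9, with a small spread in both groups. Rnu12, the U12 RNA of the minor spliceosome, had 141, 141 and 160 against 88.9, 128 and 58.5. H2-Q7, a nonclassical class I histocompatibility gene, and Necap1, an adaptor of clathrin-coated vesicles, had overlapping groups. H2-Q7 has near-identical neighbours in its family, so its reads may be shared with them. Lrrc14 and Ubr7 completed the 10, with log2 differences of 0.69 ± 0.25 and 0.35 ± 0.13.

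The same loss of Fancg can be read without the transgene, in libraries that this comparison does not use. Their sex pattern differed: 2 of the 4 FancgKO libraries, 6 and 7, had Xist at 7800 and 18010, whereas the other 2 and the 4 WT libraries were at or below 24.8. The Y-linked Ddx3y was at 219.1 in library 6, which thus held both RNAs, and at 6.53 in library 7. In the other FancgKO and WT libraries with PBS it lay between 389.6 and 552.6. In that contrast limma called 0 of 12628 genes (0%), with 497 at an unadjusted p below 0.05. With the replicate block it had 1339 at an unadjusted p below 0.05 and called 4 (0.0317%): Pvt1 and Selp rose, and Smim8 and Plekhg2 fell. Plag1 had a log2 difference of -1.73 ± 0.38 (SE) between FancgKO and WT, where its 4 FancgKO libraries ran from 13.2 to 49.0 and its 4 WT libraries from 52.2 to 113. Tjp1 had 1.11 ± 0.30, with FancgKO from 62.1 to 134.7 and WT from 22.1 to 52.0. Without the FancgKO libraries 6 and 7 these differences were -1.86 ± 0.41 and 1.44 ± 0.36. Both genes were already known from earlier analysis of that comparison, so the shared direction is given as a description. The difference between the effects with and without the transgene was -0.43 ± 0.58 for Plag1 and 0.72 ± 0.46 for Tjp1. In the interaction test 0 of 12628 genes passed (0%), and neither edgeR nor DESeq2 called any. Limma had 265 genes at an unadjusted p under 0.05, and 796 with the replicate block. Without the FancgKO libraries 6 and 7 the difference between the effects was -0.30 ± 0.56 for Plag1 and 0.40 ± 0.49 for Tjp1. Limma without the block again called 0 genes, with 543 at an unadjusted p below 0.05. A p that misses the threshold does not show that the effects are alike. Rnu12 had the largest such difference of the 20 genes named by p, 1.21 ± 0.38 (limma adjusted p = 1).

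Of the 10 genes named as lower, 10 were also lower in FancgKO than in WT, and of the 10 named as higher, 7 were also higher. Without the FancgKO libraries 6 and 7 these counts were 9 and 7. For all genes kept, a lower value with the transgene went with a lower value without it for 54.9%, and a higher with a higher for 52.7%. Where the groups did not overlap, these shares were 64.7% of the 569 lower genes and 58.9% of the 484 higher genes. The exceptions among the named genes were Necap1 at -0.07, Ubr7 at -0.02 and Rnu12 at -0.47 ± 0.25 without the transgene. The comparisons share no library, though they share the replicate numbers 2, 7 and 8.

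**Figure D2:**
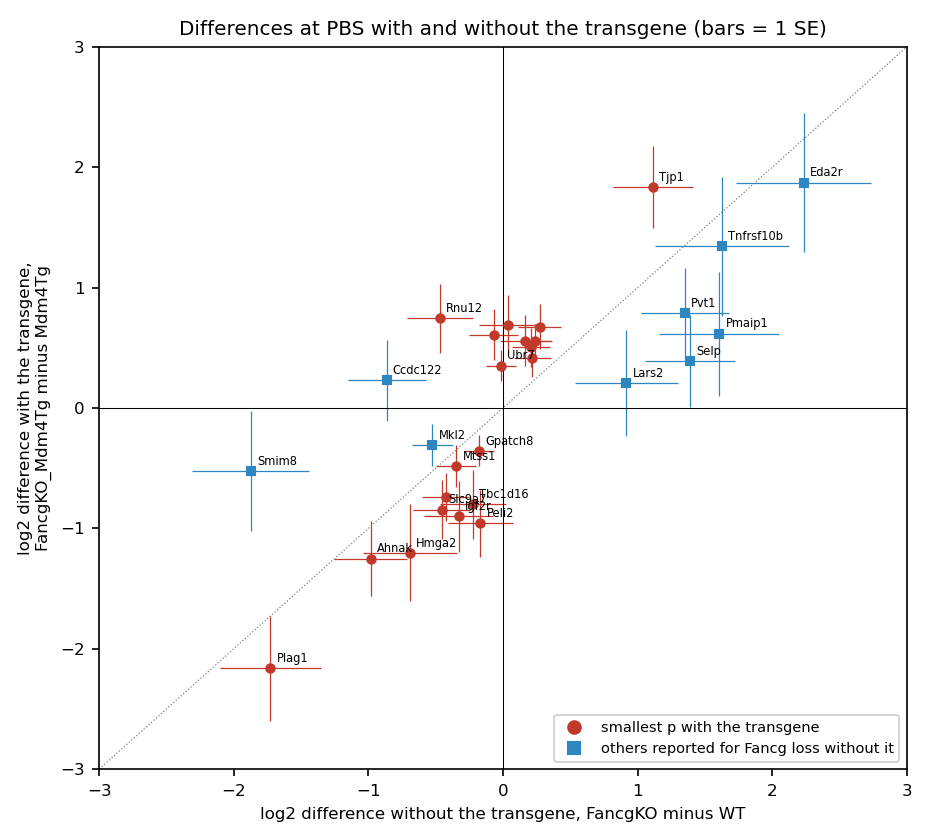
Log2 difference with the transgene (vertical axis, FancgKO_Mdm4Tg minus Mdm4Tg) against that without it (horizontal axis, FancgKO minus WT), PBS, bars 1 SE, for the 20 genes with the smallest p and the other genes reported for Fancg loss without the transgene. Plag1 (-2.16 and -1.73) and Tjp1 (1.84 and 1.11) lie far from 0 on both axes, Smim8 and Ccdc122 lie away from the dotted line of equal differences, and some points in the crowded centre carry no name.

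Under poly(I:C), which mimics viral RNA, the contrast of FancgKO_Mdm4Tg and Mdm4Tg rests on 2 libraries each. Plag1 was counted at 31.2 and 15.1 against 71.7 and 42.2, a log2 difference of -1.30 ± 0.53 (SE). Tjp1 was counted at 86.3 and 79.7 against 38.4 and 46.8, a difference of 0.95 ± 0.42. Neither passed: limma called 0 of 12628 genes (0%), with 32 below 0.05 before adjustment, or 109 with the replicate block. Neither edgeR nor DESeq2 called any. The change of the Fancg effect between poly(I:C) and PBS also gave 0 calls in limma (0%), edgeR and DESeq2. In limma 66 genes had an unadjusted p under 0.05, or 230 with the replicate block. All 10 genes named as lower at PBS were lower under poly(I:C), and 6 of the 10 named as higher were higher, beside 54.5% and 56.9% for all genes.

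A list of 12 genes taken from the contrast of FancgKO and WT at PBS was read in the transgenic libraries. Plag1, Ahnak and Tjp1 belong to it. Of the 12, 4 were higher without overlap of the groups (Tjp1, Eda2r, Tnfrsf10b and Pvt1) and 3 were lower without overlap (Plag1, Ahnak and Mkl2), beside 3.83% and 4.51% of all genes. Pvt1, a long noncoding RNA next to Myc, had 21.2, 24.2 and 27.2 against 12.7, 9.82 and 19.5. Selp, the adhesion receptor P-selectin, had 58.3, 69.9 and 51.0 against 36.6, 57.0 and 43.4, with overlap, and a log2 difference of 0.39 ± 0.39 (SE) beside 1.39 without the transgene. Smim8 differed by -0.52 ± 0.50 beside -1.88, and Ccdc122 by 0.23 ± 0.34 beside -0.87. The difference from the effect without the transgene was tested for all genes, as above, and passed for none of the 12.

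The Fanconi anaemia core complex, which Fancg belongs to, showed no shared direction. Of its 14 genes, 7 were higher and 7 lower, the groups overlapped for all 14, and the median log2 difference was 0.01. The catalytic subunit gene Fancl had 61.0, 50.9 and 71.4 in FancgKO_Mdm4Tg and 74.7, 49.1 and 79.2 in Mdm4Tg. Fanca had 119, 120 and 90.1 against 83.7, 124 and 86.8. Fance, which bridges the complex to FANCD2, was the lowest at -0.42 ± 0.34 (SE) and Cenps the highest at 0.42 ± 0.40. None of the 14 passed with limma, with or without the block.

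Genes that act after the core complex in crosslink repair were slightly more often higher than lower, with 18 of 31 higher and a median of 0.10, or 0.02 without library 2 of Mdm4Tg. The share without overlap was 3.23% in each direction, below the 3.83% and 4.51% of all genes. Bard1, the partner of BRCA1, had 310, 233 and 240 against 215, 210 and 229, and was the 1 member higher without overlap. Xrcc2, which acts in homologous recombination, had the smallest p of the list, 103, 88.0 and 102 against 80.0, 45.2 and 89.9, a log2 difference of 0.50 ± 0.21 (SE) that was 0.20 without library 7 of Mdm4Tg. Fancd2, the target of the core complex, had 188, 198 and 182 against 150, 218 and 162, with overlap. Rev3l, the catalytic subunit of translesion polymerase zeta, was lower without overlap, with 467, 464 and 461 against 534, 521 and 542, a difference of -0.20 ± 0.14. Among 42 genes of damage signalling and other repair, 26 were higher, and the median was 0.03. The 11 genes that clear aldehydes, a natural source of crosslinks, had a median of -0.12, with 7 lower. That median ran from -0.31 without library 7 of FancgKO_Mdm4Tg to -0.004 without library 2 of that group. Aldh2 had 286, 567 and 371 against 314, 450 and 347, and Adh5, which oxidises formaldehyde, 167, 130 and 170 against 162, 132 and 157. Both overlapped.

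Genes that control p53 were examined next. Trp53 had 236, 343 and 189 in FancgKO_Mdm4Tg and 258, 373 and 252 in Mdm4Tg, a log2 difference of -0.22 ± 0.20 (SE). Mdm2, which is both an inhibitor and a target of p53, had 255, 235 and 257 against 238, 257 and 226, a difference of 0.05 ± 0.14. Hipk2, a kinase that activates p53, differed by -0.36 ± 0.16. The coactivator gene Crebbp was lower without overlap, at 639, 684 and 607 against 809, 727 and 774. The 16 genes had a median of -0.07, which ran from -0.12 to -0.01 when library 7 of either group was left out. Crebbp and Huwe1, a ubiquitin ligase, were the 2 members lower without overlap (12.5%, beside 4.51% of all genes), and 0 were higher without overlap.

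Targets of p53 that act in arrest, stress and repair had no common direction, with 17 of 34 higher and 17 lower and a median of -0.01. Cdkn1a, the p21 inhibitor of cyclin-dependent kinases, had 29.2, 38.0 and 23.8 in FancgKO_Mdm4Tg against 13.5, 47.1 and 17.0 in Mdm4Tg. It was higher in pairs 2 and 8 and lower in pair 7, and the difference was 0.41 ± 0.47 (SE). Gadd45a, a damage-response gene, had the smallest p of the list, at 29.2, 35.4 and 66.3 against 14.2, 41.3 and 21.4, a difference of 0.79 ± 0.36, also lower in pair 7. Ccng1, which encodes cyclin G1, had 334, 251 and 299 against 272, 214 and 253, and was higher in each pair by 0.23 to 0.30.

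Targets of p53 that act in cell death were more often higher in FancgKO_Mdm4Tg. Of the 19 genes kept, 14 were higher, 6 were higher without overlap of the groups (31.6%, beside 3.83% of all genes) and 0 were lower without overlap. The median log2 difference was 0.26, and 0.17, 0.35 and 0.32 in pairs 2, 7 and 8. No member passed. In the higher direction 4 of the 19 had an unadjusted limma p under 0.05, beside 1.27% of all genes. The list was drawn up with earlier results of these data known, and Eda2r, Tnfrsf10b and Pmaip1 had been picked from the contrast without the transgene, so the count is a description. The median depended on genes of low count: it was 0.06 among members with a count of 50 or more in 3 or more libraries, and 0.16 without library 2 of Mdm4Tg.

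The 6 separated genes were Eda2r, Tnfrsf10b, Bbc3, Zmat3, Bax and Aen. Zmat3, an RNA-binding protein, had 34.5, 23.3 and 52.7 against 23.2, 9.82 and 23.3, a log2 difference of 0.96 ± 0.39 (SE). Bax, the pore-forming effector of mitochondrial apoptosis, had 18.6, 27.6 and 22.1 against 12.7, 15.7 and 17.6, a difference of 0.53 ± 0.31. Aen, an apoptosis-enhancing nuclease, had 69.0, 50.9 and 52.7 against 46.3, 43.2 and 42.1. Each of these was higher in all 3 pairs, which follows from the lack of overlap.

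The receptor and BH3-only genes rested on few reads. Eda2r, a death receptor of the tumour necrosis factor receptor family, had 2, 10 and 5 reads in FancgKO_Mdm4Tg and 1, 1 and 2 reads in Mdm4Tg. Scaled to depth, the summed 17 and 4 reads gave a ratio of 6.88 with an exact 95% interval of 2.24 to 28.1, which covers counting error only. Tnfrsf10b, the TRAIL receptor, had normalised counts of 18.6, 18.1 and 18.7 against 9.72, 3.93 and 7.55, and its ratio over 39 and 27 reads was 2.34 (1.39 to 3.97). Bbc3, which encodes the BH3-only protein PUMA, had 7.96, 10.4 and 17.0 against 4.48, 3.93 and 5.03, and its ratio over 25 and 16 reads was 2.53 (1.30 to 5.07). Pmaip1, which encodes NOXA, had 10.6, 8.62 and 18.7 against 6.73, 9.82 and 6.29 and overlapped. Its ratio over 25 and 24 reads was 1.69 (0.923 to 3.08). For Perp the ratio over 20 and 20 reads was 1.62 (0.826 to 3.17). Without the transgene the log2 differences were 2.24, 1.63, 0.02 and 1.61 for Eda2r, Tnfrsf10b, Bbc3 and Pmaip1. Under poly(I:C) they were 1.595, -0.24, 0.04 and 0.53 with the transgene. The list had a median of 0.20 without the transgene and 0.08 under poly(I:C).

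**Figure D3:**
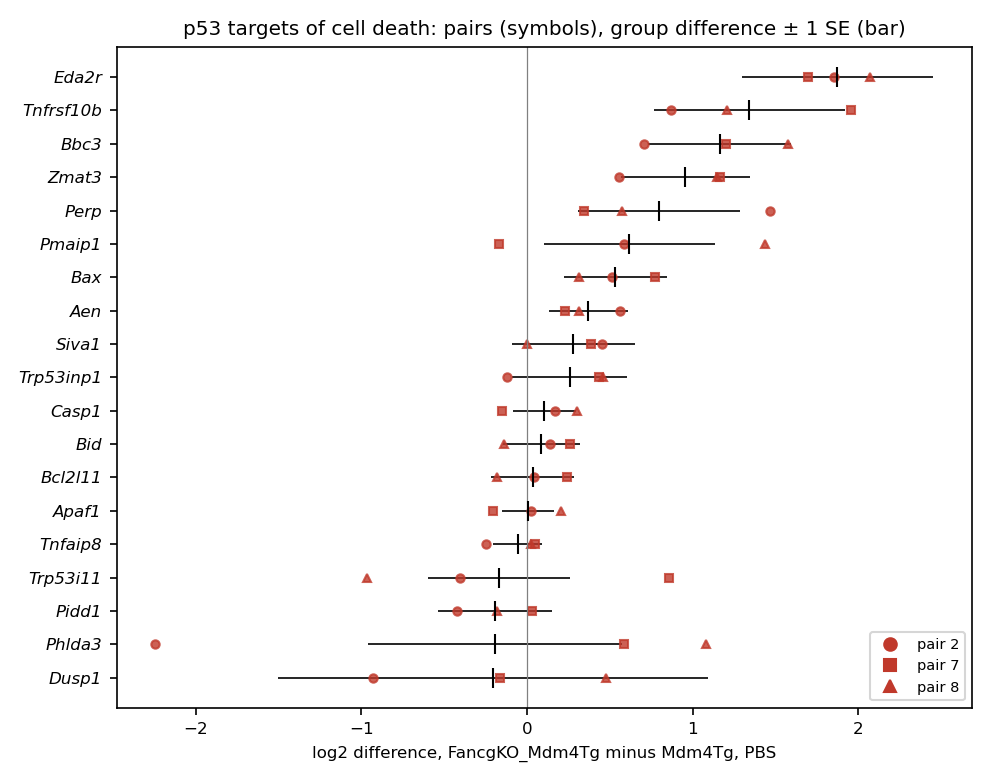
Log2 difference (horizontal axis, FancgKO_Mdm4Tg minus Mdm4Tg at PBS) of the 19 p53 targets of cell death that were kept, with bars for the group difference ± 1 SE and symbols for the 3 replicate pairs. Eda2r, Tnfrsf10b, Bbc3, Zmat3, Bax and Aen lie above 0 in all 3 pairs, which follows from their groups not overlapping. Trp53i11, Phlda3 and Dusp1 spread widely to both sides.

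Of 9 other BCL2 family genes kept, 6 were higher and 3 lower, with a median of 0.12 and log2 differences from -1.43 to 0.72. Bcl2l1, which encodes the anti-apoptotic BCL-XL, had 42.4, 38.8 and 39.1 in FancgKO_Mdm4Tg against 22.4, 19.6 and 31.4 in Mdm4Tg. The groups were separate, with a log2 difference of 0.72 ± 0.27 (SE) that did not pass. Bcl2 had 928, 637 and 811 against 898, 530 and 740, higher in each pair by 0.05 to 0.26, with overlap. Mcl1 had 501, 862 and 689 against 604, 1143 and 705 and was lower in each pair, with overlap.

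Genes of G2 and mitosis tended to be higher in FancgKO_Mdm4Tg. Of 47, 38 were higher, 12 were higher without overlap (25.5%, beside 3.83% of all genes), 0 were lower without overlap, and the median was 0.17. None passed. Besides Ttk and Birc5, the separated genes included Prc1, which bundles microtubules of the central spindle, at 459, 399 and 410 against 320, 367 and 348. Nusap1, a spindle protein, had 337, 321 and 355 against 280, 253 and 277, and the mitotic cyclin gene Ccnb2 had 167, 217 and 180 against 113, 165 and 135. Their log2 differences were 0.29 ± 0.11, 0.32 ± 0.13 and 0.45 ± 0.22 (SE). Other mitotic genes did not share this: the proliferation marker Mki67 had 1944, 2492 and 1680 against 1992, 2485 and 1982, and Plk1 and Foxm1 differed by -0.16 ± 0.27 and -0.07 ± 0.25. Pair medians were 0.27, 0.05 and 0.15, so pair 7 contributed least. Without Mdm4Tg library 2 the list's median was 0.07.

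Replication genes had a smaller shift, with 38 of 47 higher and a median of 0.09 that lay between 0.09 and 0.10 in the 3 pairs. Rfc5, a subunit of the clamp loader, had 188, 177 and 143 against 108, 130 and 142, and Fen1, the flap endonuclease, 210, 195 and 168 against 153, 141 and 159. Both were separate. Prim1, a primase subunit, was lower without overlap, at 202, 177 and 194 against 203, 224 and 208. The list had a median of 0.10 without the transgene and 0.07 under poly(I:C).

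Replication-dependent histone genes had a median of 0.40, with 55 of 57 higher, yet 4 were separated (7.02%, beside 3.83% of all genes). Their levels differed more between replicate numbers than between genotypes: the summed normalised count was 5216, 12900 and 8229 in FancgKO_Mdm4Tg and 4565, 11000 and 4880 in Mdm4Tg. Pair medians were 0.23, 0.30 and 0.74. Hist1h2bk, as an example, had 175, 286 and 206 against 114, 238 and 106. The median was 0.01 without the transgene and -0.06 under poly(I:C), and it ran from 0.08 to 0.75 when single libraries were left out, lowest without library 7 of FancgKO_Mdm4Tg and highest without library 7 of Mdm4Tg. Histone genes are close copies of each other, so reads may be split among them.

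Nuclear genes for subunits of the respiratory chain and ATP synthase tended to be higher as well. Of 73, 64 were higher, 20 without overlap (27.4%, beside 3.83% of all genes), and the median was 0.25. None passed. Atp5g1, which encodes subunit c of ATP synthase, had 42.4, 37.1 and 44.2 against 34.4, 21.6 and 18.9, a log2 difference of 0.75 ± 0.32 (SE). Uqcr11, a small subunit of complex III, had 76.9, 45.7 and 35.7 against 30.6, 27.5 and 32.1, a difference of 0.72 ± 0.33, or 0.42 without library 2 of FancgKO_Mdm4Tg. Atp5k and Uqcrq were also separated. Pair medians were 0.33, 0.04 and 0.33, the median was 0.06 without the transgene and 0.00 under poly(I:C), and the summed level was 10000, 9882 and 10120 in FancgKO_Mdm4Tg against 8404, 9729 and 8401 in Mdm4Tg.

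Mitochondrial ribosomal protein genes resembled them, with 55 of 76 higher, 13 separated (17.1%) and a median of 0.13. Mrpl2 had 42.4, 44.0 and 56.1 against 22.4, 31.4 and 28.3, a difference of 0.78 ± 0.26, and Mrpl38 had 39.8, 46.6 and 51.0 against 28.4, 21.6 and 32.7. Cytosolic ribosomal protein genes were higher for 65 of 80, with 3 separated (3.75%, near the 3.83% of all genes). Among these Rps10 had 430, 342 and 354 against 265, 295 and 211. Their median was 0.14 over the groups and -0.07 in pair 7, and without Mdm4Tg library 8 it was -0.03. Without the transgene 13 of the 80 were higher, with a median of -0.09, and under poly(I:C) 33 were, with a median of -0.03. Depth and CT010467.1 also set FancgKO_Mdm4Tg library 2 apart (949156 reads, and 95890 normalised counts), and their part in these results was not tested; without that library the respiratory chain median was 0.26.

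**Figure D4:**
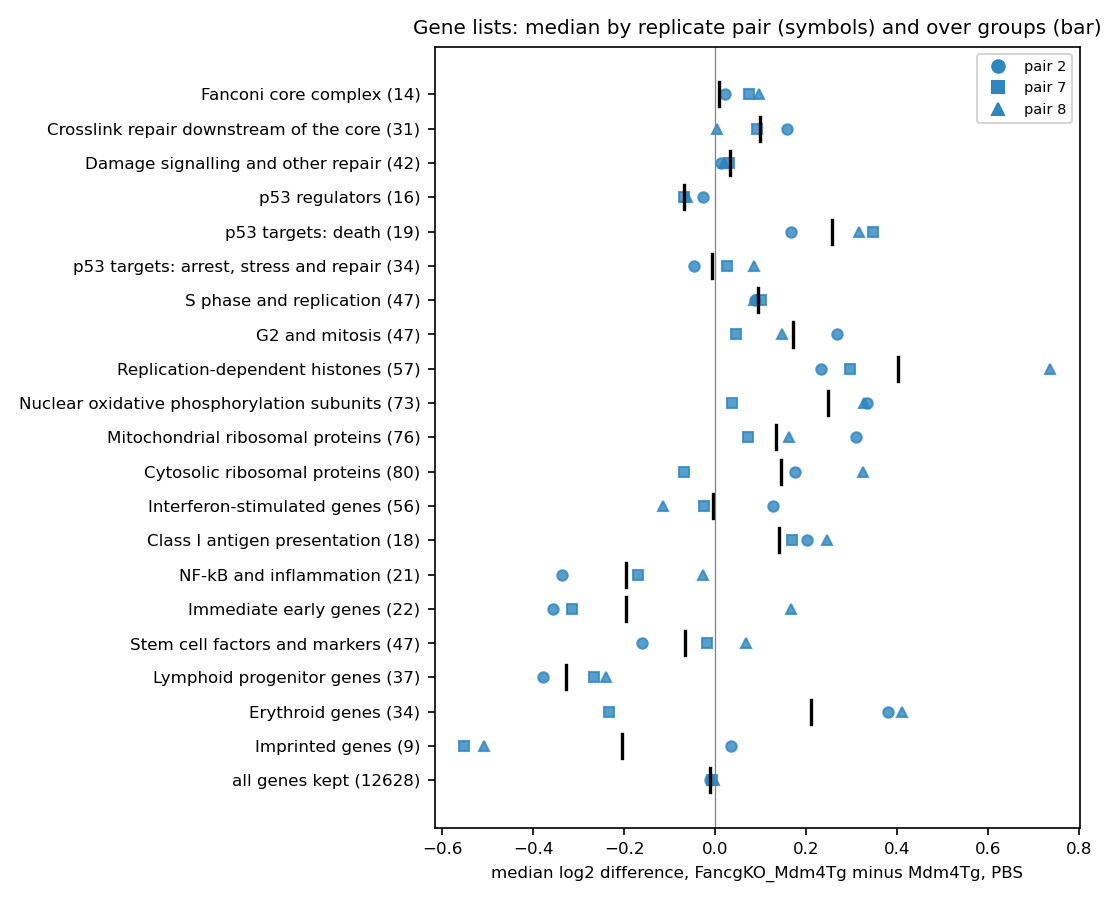
Median log2 difference (horizontal axis, FancgKO_Mdm4Tg minus Mdm4Tg at PBS) of 20 gene lists and of all genes kept, with symbols for the 3 replicate pairs, bars for the difference of the groups and the number of genes kept in brackets. Medians for p53 targets of cell death, histones and respiratory chain subunits lie above 0 and those for lymphoid progenitor genes below 0 in all 3 pairs, whereas those for erythroid and immediate early genes lie on both sides of 0.

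Genes of lymphoid progenitors tended to be lower in FancgKO_Mdm4Tg, for 34 of 37 with a median of -0.33 and pair medians of -0.38, -0.27 and -0.24. No member passed, and 4 were lower without overlap (10.8%, beside 4.51% of all genes). Ebf1, a factor that commits cells to the B lineage, had 1, 1 and 4 reads in FancgKO_Mdm4Tg and 38, 5 and 38 in Mdm4Tg, 8.35 times more for the depth in Mdm4Tg (exact 95% interval 3.67 to 23.4, counting error only). It reached the filter of 10 only in Mdm4Tg libraries with PBS, so its place among the 4 was close to fixed in advance. Il7r, the interleukin-7 receptor of lymphoid progenitors, had 74.3, 6.90 and 35.7 against 158, 15.7 and 81.1. Il7r was lower by 1.08 to 1.16 on the log2 scale in every pair. Its difference was -1.11 ± 1.31, an SE without the block that includes the larger spread between replicate numbers. Flt3, the receptor of multipotent and lymphoid-primed progenitors, had 1220, 1031 and 993 against 1623, 1092 and 1419. Rag1 had 34.5, 3.45 and 30.6 against 53.8, 1.96 and 44.0. Jchain went the other way in each pair, a log2 difference of 1.92 that was 0.16 without library 7 of Mdm4Tg. The summed level of the whole list was 14750, 12220 and 13740 against 17140, 14360 and 15650. In bulk RNA, fewer cells of a type and less RNA per cell cannot be told apart. The list's median was -0.18 without library 2 of Mdm4Tg and -0.20 without library 7 of FancgKO_Mdm4Tg. It was -0.43 for FancgKO against WT and -0.20 under poly(I:C). In a separate list of B cell genes, 2 of the 6 kept were higher and 4 lower. Their median was -0.06, within a range of -0.75 to 2.23, the highest being Igkc.

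Stem cell factors and markers had a median of -0.07, with 31 of 47 lower, and 0.07 without library 2 of FancgKO_Mdm4Tg. Without overlap 4 were lower (8.51%, beside 4.51% of all genes) and 2 higher (4.26%, beside 3.83%). Kit, the receptor used in the sort, had 1710, 2042 and 2071 in FancgKO_Mdm4Tg and 2138, 2414 and 2246 in Mdm4Tg, separate groups with a log2 difference of -0.23 ± 0.14 (SE). Mycn and Robo4, the latter with 0 reads in FancgKO_Mdm4Tg library 2, were among those also lower without overlap. Meis1, Mecom, Procr and Hlf overlapped. Lmo2 and Hoxa7 were higher without overlap, by 0.15 ± 0.13 and 0.26 ± 0.20.

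Erythroid genes lay on different sides of 0 in the pairs. They had a median of 0.21, and 0.38, -0.23 and 0.41 in the pairs. Gata1 had 34.5, 39.7 and 27.2 against 12.7, 53.04 and 13.8, and Pf4, a platelet chemokine, 34.5, 56.1 and 52.7 against 7.47, 60.9 and 10.1, so Mdm4Tg library 7 stood above its group in both. Pf4 was the highest of 33 megakaryocyte and platelet genes, of which 18 were higher and 15 lower, with a median of 0.04. Granulocyte progenitor genes had a median of 0.16, with summed levels of 7825, 10000 and 7217 against 6620, 9951 and 6838. Without library 7 of FancgKO_Mdm4Tg that median was -0.08.

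Interferon-stimulated genes, of interest because poly(I:C) induces them, had no common direction at PBS: 27 of 56 were higher, 29 lower, and the median was -0.005. Cmpk2 was higher without overlap (1.79%, beside 3.83% of all genes), and Dtx3l, Rtp4 and Slfn8 were lower without overlap (5.36%, beside 4.51%). Class I antigen presentation genes were higher for 17 of 18, with a median of 0.14 that ran from 0.09 without library 8 to 0.24 without library 7 of Mdm4Tg. H2-K1 was the 1 member higher without overlap (5.56%, beside 3.83% of all genes), with 1583, 1604 and 1819 against 1306, 1446 and 1223. H2-M3 was the 1 lower without overlap (5.56%, beside 4.51%), with 31.8, 26.7 and 13.6 against 38.9, 57.0 and 41.5. NF-kB and inflammation genes were lower for 17 of 21 with a median of -0.20, but none was separated, and without Mdm4Tg library 7 the median was -0.001. Immediate early genes also had a median of -0.20, which ran from -1.02 to 0.69 when libraries were left out. Both ends came from library 7, of FancgKO_Mdm4Tg and of Mdm4Tg. Fos was at 2646 and 4035 in those libraries and between 31.8 and 193.8 in the other 4.

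Imprinted genes included transcripts of low count with large differences. Of 9 kept, 8 were lower and 4 were lower without overlap (44.4%, beside 4.51% of all genes), namely Meg3, Rian, Igf2r and Sgce. Of these, Meg3 and Rian reached the minimum count for keeping a gene only in Mdm4Tg libraries with PBS. Their places among the 4, and so part of the 44.4%, were close to fixed in advance. Meg3 and Rian are maternally expressed noncoding RNAs of the imprinted Dlk1-Dio3 cluster on chromosome 12, which is active in long-term stem cells. Both lay below the level set for naming genes and are described because of their values. Meg3 had 0, 2 and 1 reads in FancgKO_Mdm4Tg and 11, 8 and 23 in Mdm4Tg, 8.65 times more for the depth in Mdm4Tg (exact 95% interval 2.77 to 43.6, counting error only). Rian had 0, 0 and 2 reads against 18, 3 and 24, 13.9 times more (3.63 to 118). Neither passed (limma adjusted p = 1 for each, and 0.562 and 0.542 with the block). Sgce had 23.9, 31.1 and 37.4 against 43.4, 47.1 and 50.3, and Gnas 835, 918 and 758 against 729, 910 and 765.

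Genes around Fancg on chromosome 4 were counted separately. Of 104 genes kept within 10 Mb of it, 52 were higher and 52 lower, with 9 higher (8.65%, beside 3.83% of all genes) and 5 lower (4.81%, beside 4.51%) without overlap. None passed. The 618 genes farther along the chromosome had 3.24% and 4.85%, and Plag1 is among them.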

How the data were processed

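RNA of 24 bone marrow LSK libraries was sequenced, and the deposited table holds 1 value per gene and library, a gene signal in the form of normalised counts that the authors made. Per the submitters' processing notes STAR and mm10 were used. The counter, the strand setting and the method of normalisation are not given in the sources used here. Within each library 100% of values were whole multiples of the value of 1 read (relative tolerance 1e-06), so reads and depth were recovered.

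Libraries were grouped by labels. The main test was limma 3.58.1 (R 4.3.3) on log2(value + 1) with a mean-variance trend, fitted to all 24 libraries with 8 group means (16 residual degrees of freedom), with Benjamini-Hochberg adjustment over 12628 genes at 0.05. Differences are on that scale, which understates those of low genes. edgeR 4.0.16 and DESeq2 1.42.0 were run on the recovered reads. The limma, blocked limma, edgeR and DESeq2 fits were tested on simulated data. Intervals of read ratios are exact at 95%.

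Replicate numbers 2, 7 and 8 occur in both groups. Deviations from the group means correlated at 0.245, 0.416 and 0.172 between libraries of the same number. All were above 0.1 and above every other pairing of the groups (highest 0.114). Deviations within a group sum to 0, so that second margin is partly built in. In each group number 7 alone has a title ending in _d, so number and ending cannot be told apart there. The numbers were treated as pairs, and the blocked value (12 residual degrees of freedom) is given where it alters a call. What the numbers stand for is not stated. Where no block is named, standard errors and limma p-values come from the fit without it. They include the spread between replicate numbers.

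Genes were named as all that passed plus the 10 smallest p-values in each direction among those with a mean of at least 50, the 2 highest and 2 lowest members of each list with a mean of at least 20, Fancg, Mdm4, Mdm2, Trp53, Cdkn1a, Xist, the Fanconi core complex and the 12 genes reported for Fancg loss. Other genes in the text, such as Plekhg2, Huwe1, Dtx3l, Tm2d3, Bbc3, Bax, Perp, Bard1, Rev3l, Fancd2, Ccng1, Bcl2, Prc1, Nusap1, Ccnb2, Mki67, Foxm1, Fen1, Hist1h2bk, Atp5k, Uqcrq, Mrpl2, Mrpl38, Ebf1, Rag1, Hlf, Lmo2, Hoxa7, H2-K1, Meg3 and Rian, were chosen after their values were seen. The comparison and the 43 gene lists were chosen with earlier results of these data known. Alternatives covered scaling, pseudocount, filter, tool, covariates, the block and leaving out each library. Some genes of these lists are not reported here.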

Additional observations from a re-analysis of the deposited data

How the results depend on the processing

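The count of genes called was 0 with limma on all libraries. It was also 0 with the title ending as a covariate in place of the block (limma adjusted p = 0.175 for Plag1 and 0.0712 for Tjp1). It was 2 with the replicate block, 2 with the block and array weights, 2 with DESeq2 (Plag1 and Tjp1 each time) and 4 in the fit of the 6 libraries with the block (Ahnak and Hmga2 in addition). Leaving out single libraries gave 0 to 1, the 1 being Tjp1 without library 8 of Mdm4Tg. Leaving out single libraries from the blocked fit, an alternative chosen after seeing the data, gave 0 to 2: 0 without library 2 or 7 of either group, 1 (Plag1) without library 8 of FancgKO_Mdm4Tg and 2 without library 8 of Mdm4Tg. The block altered no call in the poly(I:C) contrast or in either difference between contrasts, and moved FancgKO against WT from 0 to 4. Over these and the other alternatives Plag1 ran from -2.41 to -1.81 and Tjp1 from 1.53 to 2.22 on the log2 scale. Of 4297 values over 197 named genes, 4133 kept their sign and 164 did not, and 11 passed that had not. In 161 of the 164 the difference was smaller than its standard error to begin with. In the other 3 it was larger. Hoxa5 (0.52) was -0.050 without library 7 of Mdm4Tg, within a leave-one-out range of -0.050 to 0.822. Ndufb9 (-0.33) was 0.003 with array weights and 0.001 without library 2 of FancgKO_Mdm4Tg, within a range of -0.611 to 0.001. The cause was not tested. Leaving out the FancgKO libraries 6 and 7, chosen after seeing the data, left the difference between backgrounds at 0 calls. Of 897 list medians under alternatives, 832 kept their sign. Genes of few reads are limited by depth, which was lowest in library 2 of FancgKO_Mdm4Tg (949156 reads).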

Other observations

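Meg3, Rian and Ebf1 were singled out after their values were seen, and their levels over the 8 groups of the series add to the comparison above. Meg3 lay between 8.22 and 15.7 in Mdm4Tg with PBS, between 1.77 and 3.47 in WT with PBS, and at or below 2.77 in each of the other 6 groups. Rian lay between 5.89 and 15.1 in Mdm4Tg with PBS and between 0.885 and 4.96 in WT with PBS. Ebf1, the B lineage factor, lay between 9.82 and 28.4 in Mdm4Tg with PBS and between 0 and 9.54 in WT with PBS. In these 3 genes the Mdm4Tg libraries with PBS were above the 4 WT libraries with PBS. All 3 genes reached the filter of 10 only in Mdm4Tg libraries with PBS, so a higher level there was close to fixed in advance. These are small numbers of reads, and the contrast of Mdm4Tg with WT was not tested here.

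Immediate early genes divided the 24 libraries by the ending of their titles, whose meaning the labels do not give. Fos, a subunit of the AP-1 transcription factor, ran from 1241 to 4035 in the 12 libraries ending in _d and from 31.8 to 229.1 in the 12 ending in _d_2. Klf2 ran from 115 to 261.9 and from 1.91 to 16.8. Egr1 overlapped, from 129.3 to 901.6 and from 12.5 to 292.5. Among the 6 libraries compared here, replicate 7 of each group ends in _d, so the ending is balanced between the genotypes.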
